A study of Mus musculus with 7 samples.

Results

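The Bcl2 family holds the genes that decide whether the outer mitochondrial membrane stays intact. Of its genes, 10 were followed here by symbol in a table of 23038 genes: the anti-apoptotic Bcl2, Bcl2l1 (Bcl-xL) and Mcl1, the pore-forming effectors Bax and Bak1, and the BH3-only genes Bid, Bcl2l11 (Bim), Bbc3 (Puma), Pmaip1 (Noxa) and Bad. All 10 symbols were found, each in 1 row. Their transcripts were compared between haematopoietic stem cells (HSCs) of mice with an induced deletion of Mettl3 and control HSCs. Mettl3 encodes the catalytic subunit of the complex that writes N6-methyladenosine (m6A) on mRNA.

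The mutant group was 4 libraries from Mx1-cre; Mettl3fl/fl mice, and the control group 3 libraries from Cre-negative littermates, whose Mettl3 alleles the labels do not describe. All were C57BL/6 adults, and all received pIpC, a double-stranded RNA analogue, in 5 intraperitoneal doses of 10 µg, with marrow taken 10 days after the last dose. Cre under the Mx1 promoter is switched on by interferon in many cell types, so the deletion is not limited to HSCs, and the controls share the interferon stimulus but not Cre. Each library was made by Smart-seq2, a full-length cDNA method for few cells, from 150 cells. The sort kept cells with Sca1, cKit and CD150 that lacked CD48 and the lineage markers.

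For each gene the authors give 1 mean per group in RPKM, which is reads divided by the length of the gene and by the size of the library. No member has values per library, so there is no SD and no test. No difference below can be set against the spread between libraries. Differences are log2((mutant + 1)/(control + 1)), with 1 RPKM added, a scale that understates low genes, and folds are quotients of the deposited means. A gene was counted as apart when it differed at least 2-fold on that log2 scale. By the spacing of the lowest values, the mutant libraries held 25.7 to 37.7 M reads (megareads) and the control libraries 19.6 to 31.1 M. Mettl3 was at 9.60 RPKM in the mutant mean and 49.8 RPKM in the control mean, 19.3% of the control level. The transcript was thus reduced in the mutant mean and not absent.

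The 6 HSC markers checked (Kit, Ly6a, Slamf1, Procr, Hlf and Mecom) were above 1 RPKM in both groups, with sums of 302 RPKM in mutants and 328 RPKM in controls. Of 7 mature myeloid markers, 3 were above 1 RPKM in mutants and 4 in controls, with sums of 297 and 421 RPKM in mutants and controls, of which Lyz2 made 289 and 406 RPKM. Of 4 T or natural killer cell markers, Cd3e, Cd3g and Il2rb were without reads in both groups, while Nkg7 was at 62.3 RPKM in mutants and 124 RPKM in controls. Of 3 B or plasma cell markers, Cd79a and Ms4a1 were without reads in both groups, and Igj was at 0.0166 RPKM in mutants and 1.59 RPKM in controls. The 3 erythroid markers summed to 15.1 RPKM in mutants and 6.96 RPKM in controls. Of these, Hba-a1 was without reads in both groups, Hbb-b1 was at 7.79 RPKM in mutants and 2.30 RPKM in controls, and Klf1 was at 7.13 RPKM in mutants and 4.50 RPKM in controls. Cd48, which the sort selects against, was at 4.04 RPKM in mutants and 5.33 RPKM in controls. In pooled cells such as these, fewer cells of a type and less RNA per cell cannot be told apart, and the part of other cell types in the values below was not tested.

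As background, anti-apoptotic members hold Bax and Bak1 inactive in the mitochondrial membrane. BH3-only members report damage, loss of growth factors or signals from death receptors, and either occupy the anti-apoptotic members or activate the effectors directly. Active Bax and Bak1 form pores that release cytochrome c, which leads to caspase activation. HSCs depend on Mcl1 for survival, and m6A has been linked to BCL2 mRNA in human leukaemia cells.

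What these proteins share is a short stretch, the BH3 domain, through which they bind each other. The stretch coding for the BH3 core is shown for the 9 members other than Pmaip1, from GENCODE M21 transcripts on mm10. Each sequence is 42 coding bases, 5′ to 3′ on the coding strand. Capitals mark 3 codons: the invariant leucine, then, after 3 further codons, a small residue and the aspartate that follows it.
Bcl2: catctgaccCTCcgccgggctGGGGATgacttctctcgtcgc
Bcl2l1: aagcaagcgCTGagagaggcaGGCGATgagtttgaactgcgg
Mcl1: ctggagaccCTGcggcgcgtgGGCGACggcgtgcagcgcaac
Bax: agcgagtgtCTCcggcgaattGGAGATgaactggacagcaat
Bak1: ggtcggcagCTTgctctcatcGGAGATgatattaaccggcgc
Bid: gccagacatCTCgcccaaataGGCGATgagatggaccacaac
Bcl2l11: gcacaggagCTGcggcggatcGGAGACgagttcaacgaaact
Bbc3: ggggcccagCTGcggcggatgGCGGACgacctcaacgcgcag
Bad: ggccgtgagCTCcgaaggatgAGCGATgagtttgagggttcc

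The small residue is glycine in all of these except Bbc3, where the codon is for alanine, and Bad, where it is for serine. The pattern searched was leucine, any 3 residues, glycine, alanine or serine, aspartate, and then aspartate, glutamate or glycine. It occurred once in each of the 9 coding sequences, and at least once in 8.65% of 21760 coding sequences (1 per gene), so a match alone does not define the family. The alanine, the serine and the final glycine of the pattern each fit only 1 of these members (Bbc3, Bad and Mcl1). The pattern thus takes in these sequences by its make-up, and a match in all 9 is no test. Pmaip1 was left out whatever its match, so these 9 do not show whether the pattern fits it. Each core lies within a single coding exon. It is in exon 1 of 2 in Bcl2 (chr1:106712569-106712610, minus strand), exon 2 of 3 in Bcl2l1 (chr2:152829691-152829732, minus) and exon 1 of 3 in Mcl1 (chr3:95659427-95659468, plus). Among the effectors it is in exon 3 of 6 in Bax (chr7:45465991-45466032, minus) and exon 4 of 6 in Bak1 (chr17:27022525-27022566, minus). Among the BH3-only genes it is in exon 4 of 6 in Bid (chr6:120897283-120897324, minus), and in exon 3 of 4 in Bcl2l11 (chr2:128147141-128147182, plus), in Bbc3 (chr7:16313764-16313805, plus) and in Bad (chr19:6950783-6950824, plus).

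Across the family, 9 of 10 members had reads, of which 5 had a higher mutant mean and 4 a lower one. Among all 14539 genes with reads, 52.6% had a higher mutant mean and 47.4% a lower one. No member with reads was at least 2-fold apart on the log2(RPKM + 1) scale, against 7.14% of all genes with reads. At 1.5-fold, 2 of 9 were apart, against 23.4% of all genes. These were Bcl2l1, on the higher side with 13.0% of all genes, and Bcl2l11, on the lower side with 10.4%. By the plain quotient of the means, 1 of 9 was 2-fold apart, against 25.1% of all genes. That was Bcl2l11, lower in the mutant mean like 11.5% of all genes, while 13.6% of all genes and no member were 2-fold higher. The members' shares at these thresholds are near or below those of the whole table.

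**Figure D1:**
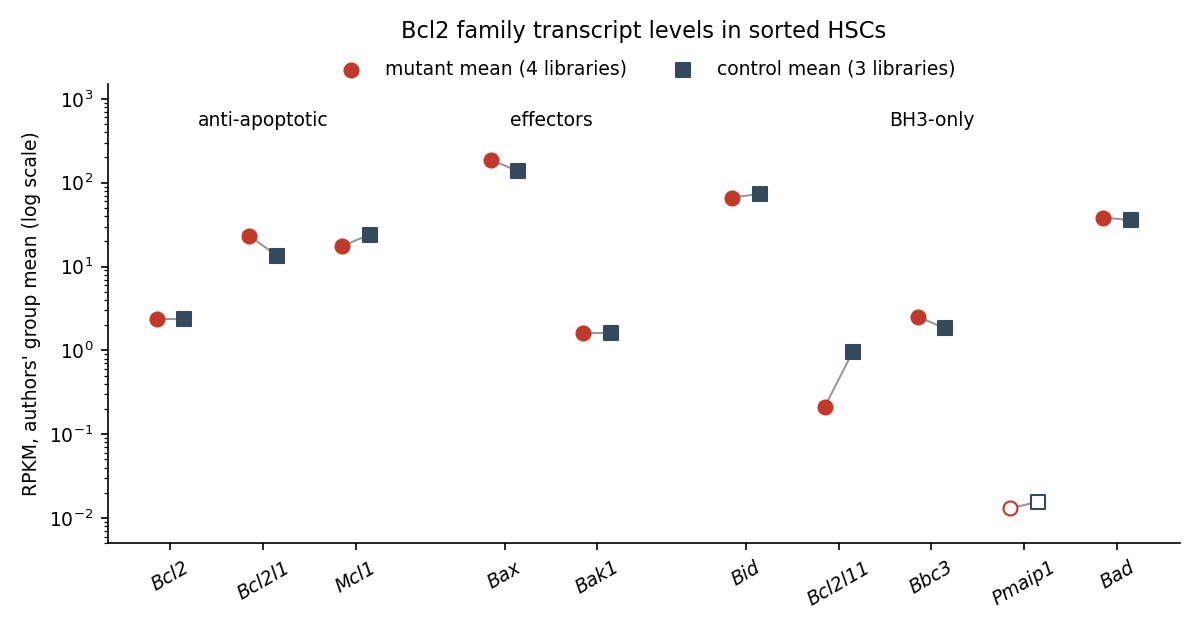
RPKM of the 10 Bcl2 family genes by role, on a log axis: circles are the mutant mean of 4 libraries, squares the control mean of 3, and lines join the values of 1 gene; there are no error bars because the members have no values per library. Bax is highest in both groups, Bcl2l1 and Mcl1 change places, Bcl2l11 is lower in the mutant mean, and the open symbols of Pmaip1 mark the level that stands for no reads.

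Among the anti-apoptotic genes, the pair with the higher levels went opposite ways. Bcl2l1, which encodes the long-lived protector Bcl-xL (NCBI Gene 12048, chromosome 2, 152758732 to 152833803 on GRCm38.p6), averaged 23.1 RPKM in mutants and 13.4 RPKM in controls. It was 1.72-fold higher in mutants, a log2 difference of 0.74, the largest among the members on that scale. Of 890 genes whose mean level lay within 1.2-fold of its own, 14.5% were at least as far apart.

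Mcl1, which encodes a protector with rapid turnover (NCBI Gene 17210, chromosome 3, 95656944 to 95663179), was at 17.6 RPKM in mutants and 24.1 RPKM in controls, a log2 difference of -0.44. Of 861 genes at a like level, 37.0% were at least as far apart. Bcl2, the founding member of the family and the target of the drug venetoclax, was low and nearly equal, at 2.39 RPKM in mutants and 2.35 RPKM in controls.

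The order of the protectors therefore differed between the group means. Bcl2l1 made 53.7% of the summed anti-apoptotic RPKM in mutants and 33.7% in controls. Mcl1 made 40.8% in mutants and 60.4% in controls. Bcl2 made 5.54% in mutants and 5.90% in controls. The quotient of Bcl2l1 over Mcl1 was 1.32 in mutants and 0.558 in controls, while the sum of the 3 genes was 43.1 RPKM in mutants and 39.9 RPKM in controls. Whether the exchange of places holds in each library could not be seen, since the means carry no spread.

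**Figure D2:**
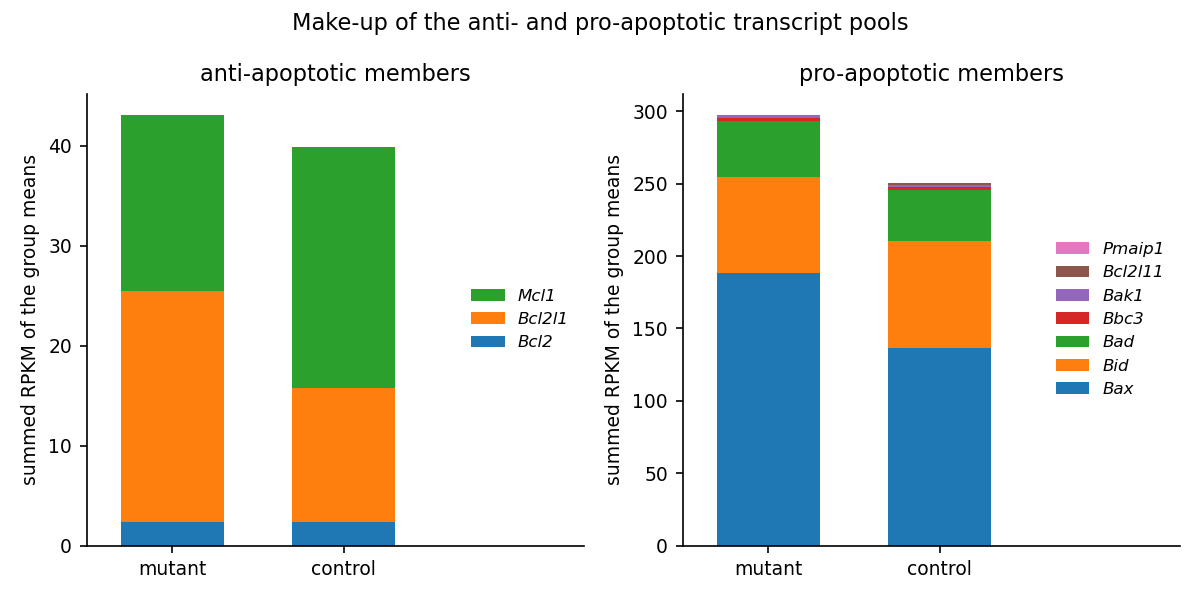
Stacked RPKM of the anti-apoptotic (left) and pro-apoptotic (right) members, with the mutant mean left of the control mean in each panel and both axes starting at 0. The anti-apoptotic sums are 43.1 RPKM in mutants and 39.9 RPKM in controls but are made up differently, and the pro-apoptotic sums, 297 and 250.3 RPKM in mutants and controls, are mostly Bax, Bid and Bad.

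The effectors were present at very unequal levels. Bax (NCBI Gene 12028, chromosome 7, 45461695 to 45466903), which is cytosolic until it is activated, was at 188 RPKM in mutants and 136 RPKM in controls, 1.38-fold higher with a log2 difference of 0.46. It stood at rank 546 of all genes in the mutant column and rank 902 in the control column. Of 358 genes at a like level, 16.5% were at least as far apart. Bak1, which encodes the effector that resides on mitochondria, was at 1.61 RPKM in both groups, with quotients of Bax over Bak1 of 117 in mutants and 84.5 in controls. RPKM divides by gene length, but the length the authors used for Bak1 is not known. Comparisons between genes, here and in the sums over members, are therefore approximate.

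The BH3-only genes comprised a highly expressed pair and a low trio. Bid, whose protein is cut by caspase-8 downstream of death receptors, was at 66.5 RPKM in mutants and 73.6 RPKM in controls, a log2 difference of -0.15. Bad, which growth factor signalling holds inactive by phosphorylation, was at 38.4 RPKM in mutants and 35.8 RPKM in controls, a log2 difference of 0.10. Together the pair made 97.4% of the BH3-only sum in mutants and 97.5% in controls. Among genes at a like level, 71.8% were at least as far apart as Bid and 80.8% as far as Bad.

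The other BH3-only genes are known mainly for control at the level of transcription. Bbc3, a p53 target, was at 2.52 RPKM in mutants and 1.82 RPKM in controls, a log2 difference of 0.32. Of 685 genes at a like level, 59.6% were at least as far apart.

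Bcl2l11 (NCBI Gene 12125, chromosome 2, 128126038 to 128162547), whose product Bim is induced when cytokine signals are withdrawn, was at 0.213 RPKM in mutants and 0.953 RPKM in controls. The control mean was 4.48-fold the mutant mean, the largest quotient among the members. On the log2(RPKM + 1) scale its difference was -0.69, and 29.6% of 460 genes at a like level were at least as far apart. If its gene model had the 5036 bases of its longest GENCODE transcript, these means would stand for 107 to 156 reads over the 4 mutant libraries and 280 to 444 reads over the 3 control libraries. How those reads were divided among libraries is not known, so 1 library could carry much of either mean.

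Pmaip1, another p53 target, was listed at 0.0131 RPKM in mutants and 0.0156 RPKM in controls. These are the values the table gives to a gene without reads (described with the processing), for a gene model of 2654 bases. A count of 0 allows up to 3 reads per group, or 0.00962 RPKM in mutants and 0.0151 RPKM in controls, counting error only. No difference in Pmaip1 could be detected at this depth, and it was left out of counts and medians.

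**Figure D3:**
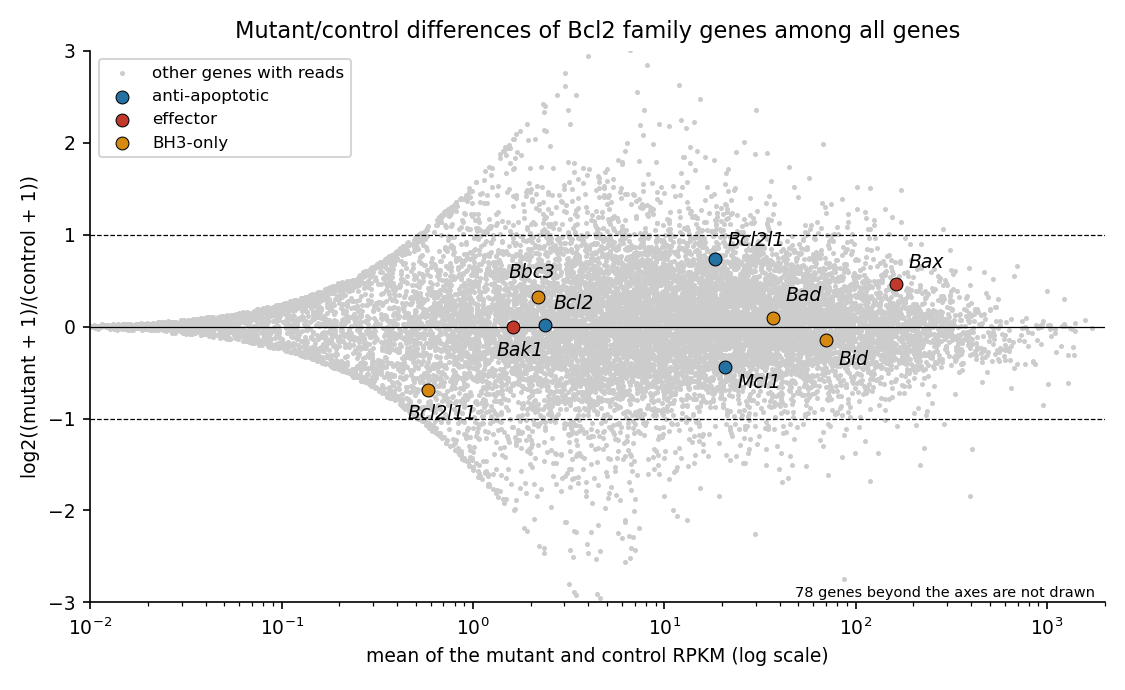
Log2((mutant + 1)/(control + 1)) against the mean of both group means (RPKM, log axis) for all genes with reads (grey) and the 9 Bcl2 family genes with reads (coloured by role), with dashed lines at 2-fold. Every coloured point lies between the dashed lines and inside the grey cloud at its level.

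Summed by class, the mutant and control levels were farthest apart in the effectors, 1.37-fold higher in mutants. The pro-apoptotic sum was 297 RPKM in mutants and 250.3 RPKM in controls, 1.19-fold higher, and the effector sum was 189.8 and 138 RPKM in mutants and controls. The BH3-only sum was 108 RPKM in mutants and 112 RPKM in controls. The quotient of the anti- over the pro-apoptotic sum was 0.145 in mutants and 0.159 in controls. Without Bcl2l1 and Bax, the highest gene of each class in the mutant mean, it was 0.183 in mutants and 0.232 in controls. Without Mcl1 and Bax, the highest of each class in the control mean, it was 0.234 in mutants and 0.139 in controls, so which group had the higher quotient depends on the protector counted. The median log2 difference was 0.01 over the 3 anti-apoptotic genes and 0.05 over the 6 pro-apoptotic genes with reads, beside 0.02 over all genes with reads.

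The members' transcripts were also searched for GGACT, the most common form of the sequence at which Mettl3 methylates adenosine. In the longest protein-coding GENCODE transcript, all 10 members held it at least once, as did 89.4% of 18536 genes. The density was above the median of all genes, 1.01 per kb, in 8 of 10 members. It was highest in Bbc3 (2.76 per kb, 5 matches in 1814 bases) and Bax (2.73 per kb, 3 matches in 1100 bases). Mcl1 followed (2.34 per kb, 8 matches in 3418 bases). The density was 1.17 per kb in Bcl2l1 (3 matches) and 1.25 per kb in Bcl2 (9 matches). Bcl2l11 (0.993 per kb) and Pmaip1 (0.733 per kb) were below the median. Bax and Bbc3 were higher and Mcl1 lower in the mutant mean, and a relation between density and difference was not tested. A match is a sequence only, and whether these sites carry m6A in HSCs was not measured.

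Other genes of the family were mostly low. They were listed together with Bnip1, Bnip2 and Moap1, which encode binding partners and not members of the family. The name other Bcl2 family genes and the counts and median below take these in. Of 19, 15 had reads, 9 of them higher and 6 lower in the mutant mean, with a median log2 difference of 0.25. For this and the lists that follow, the shares among all genes with reads were 52.6% higher and 47.4% lower. Of these 15, 1 was 2-fold or more above the control mean and 0 as far below it, against 3.67% and 3.47% of all genes. That gene was Bcl2l2, which encodes the protector Bcl-w, at 1.87 RPKM in mutants and 0.432 RPKM in controls. Bok, a relative of Bax and Bak1, was at 5.66 RPKM in mutants and 3.02 RPKM in controls. Bnip3, which encodes a mitochondrial protein of hypoxia and mitophagy, was at 22.1 RPKM in mutants and 29.4 RPKM in controls.

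The Bcl2a1 genes, near-identical copies of a protector gene whose reads may have been divided among them, were all below 1 RPKM in both groups. Bcl2a1b was without reads in controls, and its 0.300 RPKM in mutants equals 20 reads of a single library. Bcl2l15 differed by 1 read of a single mutant library. The median of 0.25 thus holds genes decided by 1 library, and 5 of its 15 genes stayed under 1 RPKM in each group.

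**Figure D4:**
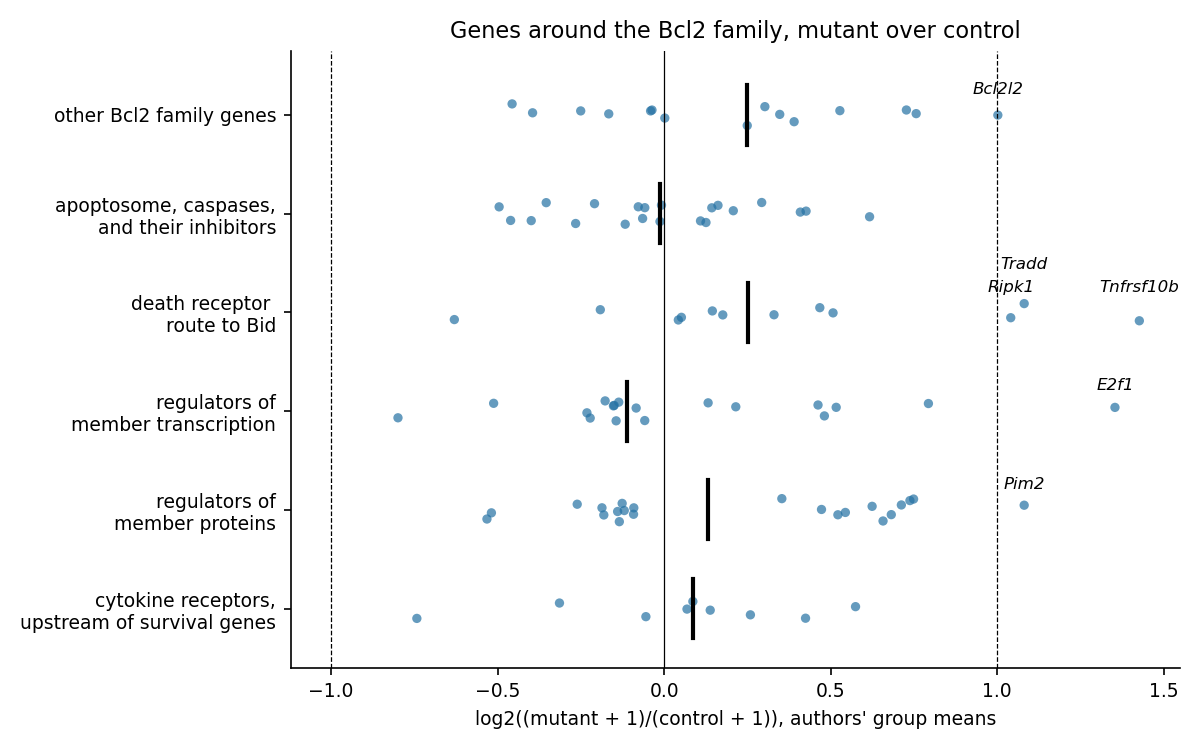
Log2((mutant + 1)/(control + 1)) of each gene with reads (points) in 6 lists around the Bcl2 family, with the list median (black bar) and dashed lines at 2-fold; vertical scatter within a row has no meaning. Genes at least 2-fold apart are named: Bcl2l2, Ripk1, Tradd, Tnfrsf10b, E2f1 and Pim2, all on the right.

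Downstream of the pores, genes of the apoptosome, the caspases and their inhibitors were spread around 0. All 21 had reads, 9 higher and 12 lower, with a median of -0.01. None of the 21 was at least 2-fold apart, beside 7.14% of all genes. Birc5 (survivin), an inhibitor-family gene expressed in mitosis, was at 45.2 RPKM in mutants and 29.1 RPKM in controls. Dffb, the nuclease that cuts DNA in apoptosis, was at 13.2 RPKM in mutants and 18.6 RPKM in controls. Apaf1, the scaffold of the apoptosome, was at 0.973 RPKM in mutants and 1.05 RPKM in controls, and Cycs, cytochrome c itself, at 8.41 and 7.52 RPKM in mutants and controls. Apaf1 and Cycs were picked after their values were seen.

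Genes of the death receptor route, which reaches mitochondria through Bid, had higher mutant means in 10 of the 12 that had reads. Among all genes with reads, 52.6% had a higher mutant mean. The median log2 difference of the 12 was 0.25. Of the 12, 3 were 2-fold or more above the control mean and 0 as far below it, beside 3.67% and 3.47% of all genes. Tradd, the adaptor of the tumour necrosis factor receptor, was at 108 RPKM in mutants and 50.6 RPKM in controls. Ripk1, the kinase it recruits, was at 26.8 RPKM in mutants and 12.5 RPKM in controls. Tnfrsf10b, the mouse TRAIL receptor, was low, at 2.39 RPKM in mutants and 0.262 RPKM in controls. Tnfrsf1a, the receptor itself, was at 52.1 RPKM in mutants and 36.3 RPKM in controls, whereas Traf2, which links it to survival signalling, was at 24.6 RPKM in mutants and 38.7 RPKM in controls. Bid, the end of this route among the members, was at 0.903 of its control level.

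Regulators of the members' transcription with reads numbered 18, 7 higher and 11 lower in the mutant mean. Their median log2 difference was -0.11. E2f1, a cell cycle factor that can induce BH3-only genes, was at 14.1 RPKM in mutants and 4.89 RPKM in controls, the 1 gene of these 18 at least 2-fold apart, beside 7.14% of all genes. Rela, the NF-kB subunit that can induce Bcl2l1, was at 78.6 RPKM in mutants and 44.9 RPKM in controls. Ddit3 (CHOP), which can induce Bcl2l11 under endoplasmic reticulum stress, was at 40.1 RPKM in mutants and 70.5 RPKM in controls.

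Regulators of the members' proteins numbered 22, 11 higher and 11 lower in the mutant mean. Their median log2 difference was 0.13. The median was 0.35 when Trim17, the 1 gene below 1 RPKM in both groups, was left out, because no gene of the list lay between -0.09 and 0.35. Pim2, a kinase that can phosphorylate Bad, was at 123 RPKM in mutants and 57.4 RPKM in controls, the 1 gene of these 22 at least 2-fold apart, beside 7.14% of all genes. Akt1 and Rps6ka1 encode further kinases of Bad. Akt1 was at 76.6 RPKM in mutants and 45.2 RPKM in controls, and Rps6ka1 at 154 RPKM in mutants and 92.0 RPKM in controls. Huwe1, a ubiquitin ligase of Mcl1, was at 5.75 RPKM in mutants and 8.76 RPKM in controls, and Usp9x, which removes ubiquitin from Mcl1, at 7.60 and 4.90 RPKM in mutants and controls. Fbxw7, also a ubiquitin ligase gene of this list, went the other way from Huwe1, at 4.13 RPKM in mutants and 2.70 RPKM in controls. Btrc, Trim17 and Gsk3b had lower mutant means. All of these, from Huwe1 on, were picked after their values were seen.

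Cytokine receptors and their kinases upstream of the survival genes that are reported here numbered 9, 6 higher and 3 lower in the mutant mean. Their median log2 difference was 0.09, and 0 of these 9 were at least 2-fold apart, beside 7.14% of all genes. Kit, the receptor for stem cell factor and part of the sort, was at 39.9 RPKM in mutants and 67.4 RPKM in controls. Ifnar1, a subunit of the type I interferon receptor, was at 18.1 RPKM in mutants and 13.3 RPKM in controls.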

How the data were processed

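Per the file headers, each deposited RPKM column belongs to a whole group, so the authors had pooled its libraries. The submitters' processing notes name mm10, Picard and edgeR without a role. Aligner, annotation and way of averaging: not given in the sources used here. In 8499 genes (36.9%) the mutant/control quotient was 0.841, and the values were a constant of the group over a whole number of bases: 0.0349 RPKM for 1 kb in mutants and 0.0414 in controls. These were read as genes without reads. Small excesses over these constants were read as multiples of 4 steps in mutants and 3 in controls, numbers set in advance to those of the libraries. The sums of the steps, which were not constrained, equalled the constant within a relative 1e-09. A step was read as 1 read. The procedure was tested on simulated data made by the same rule by which the values were read. That test cannot show that the deposited values follow the rule. Members and lists were chosen with earlier results of these data known. Named from each list were genes at least 2-fold apart and, besides, the 2 farthest apart of those with at least 5 RPKM in a group. A few genes of the marker and pathway lists are not reported here. Alternatives were other pseudocounts, column scalings, a minimum of 1 RPKM and another fold. All 10 members matched RefSeq (GRCm38.p6, which mm10 names) by NCBI Gene identifier. Python 3.11.15, pandas 2.3.3 and NumPy 2.4.6 were used.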

Additional observations from a re-analysis of the deposited data

How the results depend on the processing

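With a pseudocount of 0.1 RPKM, 1 member in place of 0 was at least 2-fold apart, and 2855 genes in place of 1038 in the whole table. Without a pseudocount the numbers were 1 and 3655, since low genes then differ more. The member was Bcl2l11 each time, at -1.75 and -2.16. The quotient of the anti- over the pro-apoptotic sum in mutants, divided by that in controls, was 0.908 with all members and 1.68 without Mcl1 and Bax, a setting chosen after seeing the data. At a threshold of 1.5-fold, 2 members were apart. The median of the other Bcl2 family genes was 0.36 without a pseudocount, and that of the regulators of member proteins was 0.35 with a minimum of 1 RPKM in 1 group, which drops a single gene. Of 44 member values under the alternatives, 4 moved by over 0.1 on the log2 scale, all of Bcl2l11 or Bbc3 with less or no pseudocount. Scaling the columns to equal sums, or dividing the mutant column by the median quotient of 1.02, moved no member by over 0.1, but Bcl2 and Bak1 lie so near 0 that their signs carry no information. Leaving out each library was not run, because it needs values per library. No paired analysis was possible because a value per replicate is needed for it and each column is 1 mean.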

Other observations

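For 435 genes without reads in mutants and 797 without reads in controls, the offset gives the gene model length, and with it the reads of each library in the other group. None of the 9 members with reads was among them; of the other Bcl2 family genes, Bcl2a1b and Bcl2l15 were. The length the authors used for Bcl2, Bak1, Bbc3 and Bcl2l11 is not known, and the division of their reads among libraries was not determined.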
